A study of Mus musculus with 8 samples.

Results

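The genes described here are the 10 that encode the main parts of the MHC class I pathway in the mouse: the class I heavy chains H2-K1 and H2-D1, the light chain gene B2m, the peptide transporter genes Tap1 and Tap2, the tapasin gene Tapbp, the immunoproteasome genes Psmb8, Psmb9 and Psmb10, and the transactivator gene Nlrc5. They were chosen by name, not by measured value, and are 10 of 24413 gene symbols with read counts. Their transcripts were counted in 8 libraries of CD22-CD138+ plasmablasts, which divide and secrete antibody after a B cell has been activated. Splenic B220+ B cells of the C57BL/6J strain were kept in LPS, a bacterial cell wall component that activates B cells, at 25 µg/ml over 4 days and were then sorted. The 4 knockout libraries carry the genotype Jagn1fl/fl Mb1Cre+ (titled Jagn1DB), that is, floxed alleles of Jagn1, an endoplasmic reticulum (ER) membrane protein gene, and the recombinase Cre driven by Mb1 (Cd79a), a gene active from early B cell stages on. The 4 control libraries carry Jagn1fl/fl, and no Cre is listed for them, so loss of Jagn1 and presence of Cre cannot be told apart. The series states 4 mice per genotype, and neither age nor sex is given in the labels.

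MHC class I molecules show peptides from proteins made inside a cell to CD8+ T cells. The proteasome cuts proteins into peptides, the TAP transporter carries them into the ER, and tapasin, with the chaperone calreticulin and the oxidoreductase ERp57, helps load them onto a heavy chain bound to beta-2-microglobulin. Interferons and NF-kB induce most of these genes, and NLRC5 activates them through a short promoter module that is bound by the RFX, CREB/ATF and NF-Y proteins. In lymphoid cells part of the proteasomes carry the inducible catalytic subunits made from Psmb8, Psmb9 and Psmb10 in place of the constitutive ones made from Psmb5, Psmb6 and Psmb7.

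The promoter sequences of the heavy and light chain genes are shown first, since these genes share this module. RefSeq promoter windows (GRCm38.p6, 250 bases before to 50 after the RefSeq start) were found for 8 of the 10 genes, all but Tap2 and Nlrc5. In the windows of H2-K1, H2-D1 and B2m, the letters TGACG, a CREB/ATF core site known in class I promoters as X2, lay 20 bases before ATTGG, the NF-Y site known as the Y box. The capitals mark these sites in the 30-base stretches, which start 41, 101 and 78 bases before the RefSeq start and lie at chr17:34000359-34000388 (minus strand), chr17:35262993-35263022 (plus strand) and chr2:122147609-122147638 (plus strand).
H2-K1: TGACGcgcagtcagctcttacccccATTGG
H2-D1: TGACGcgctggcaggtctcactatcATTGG
B2m: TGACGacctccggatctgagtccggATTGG
The H2-K1 stretch was identical to that of H2-D1 at 23 of 30 bases and to that of B2m at 13 of 30. Searched on both strands, the pair with this gap was found in 26 of 27025 promoter windows (0.0962%), one per gene, and the gap was set after these sequences were seen. TGACG alone was in 21% and ATTGG alone in 37.9% of windows. Both motifs lie within the pair, so these searches overlap. A second stretch, shown because it holds the sites through which NF-kB and interferon regulatory factors are known to act on class I genes, was almost the same in both heavy chain genes. In it the capitals mark a palindrome, an NF-kB site that fills the first 11 bases, and TTTCACTTC. The latter is a match on the other strand to GAANNGAAA, a form of the interferon regulatory factor site. It lies at chr17:34000429-34000458 for H2-K1 and chr17:35262923-35262952 for H2-D1.
H2-K1: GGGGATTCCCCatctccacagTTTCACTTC
H2-D1: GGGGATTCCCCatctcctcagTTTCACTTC
These 2 stretches were identical at 29 of 30 bases. The palindrome was in 6 of 27025 windows (0.0222%) and GAANNGAAA in 7.56%, and neither was found in the B2m window. Only these exact letters were searched, so other forms of either site were not looked for in any window. The B2m sequence below holds similar letters, gaaactgaaa and gggaaagtccc, which the search did not cover. A window without a match may therefore still hold such a site in another form. The longer upstream sequences of H2-K1 (chr17:34000349-34000597, minus strand) and B2m (chr2:122147437-122147685, plus strand) show the same sites in their context, again in capitals.
H2-K1: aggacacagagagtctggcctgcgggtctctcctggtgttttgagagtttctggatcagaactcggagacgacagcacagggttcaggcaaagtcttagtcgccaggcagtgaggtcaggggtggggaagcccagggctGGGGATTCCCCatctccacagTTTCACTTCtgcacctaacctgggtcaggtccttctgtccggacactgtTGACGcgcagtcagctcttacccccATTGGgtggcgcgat
B2m: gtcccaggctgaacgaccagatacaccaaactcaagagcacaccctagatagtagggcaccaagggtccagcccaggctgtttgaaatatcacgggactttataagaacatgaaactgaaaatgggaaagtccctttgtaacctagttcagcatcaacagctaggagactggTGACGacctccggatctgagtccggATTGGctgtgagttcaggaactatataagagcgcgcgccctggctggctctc
The windows of Tap1, Tapbp, Psmb8, Psmb9 and Psmb10 held neither the palindrome, GAANNGAAA nor the spaced pair. A match of letters is a description and not a measured binding site.

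None of the 10 genes passed the test between knockout and control (edgeR's quasi-likelihood test, adjusted p under 0.05 over 9904 genes tested), in a comparison that called 5.74% of all genes. All 10 had passed the filter on low counts. At an unadjusted p under 0.05 there were 2, H2-K1 and Tapbp, against 18% of all genes, and DESeq2 and limma-voom each called these 2, against 8.66% and 10.8% of all genes. The fitted values were above 0 for 4 genes and below 0 for 6, with a median log2 fold change of -0.11, where the median of all genes tested was -0.01. H2-K1 alone among the 10 had groups that did not overlap, with all knockout libraries above all controls, as in 6.45% of all genes, and none lay wholly below, as did 6.64% (13.1% in either direction). The cells are bulk samples, in which fewer cells of a type and less RNA per cell cannot be told apart.

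**Figure D1:**
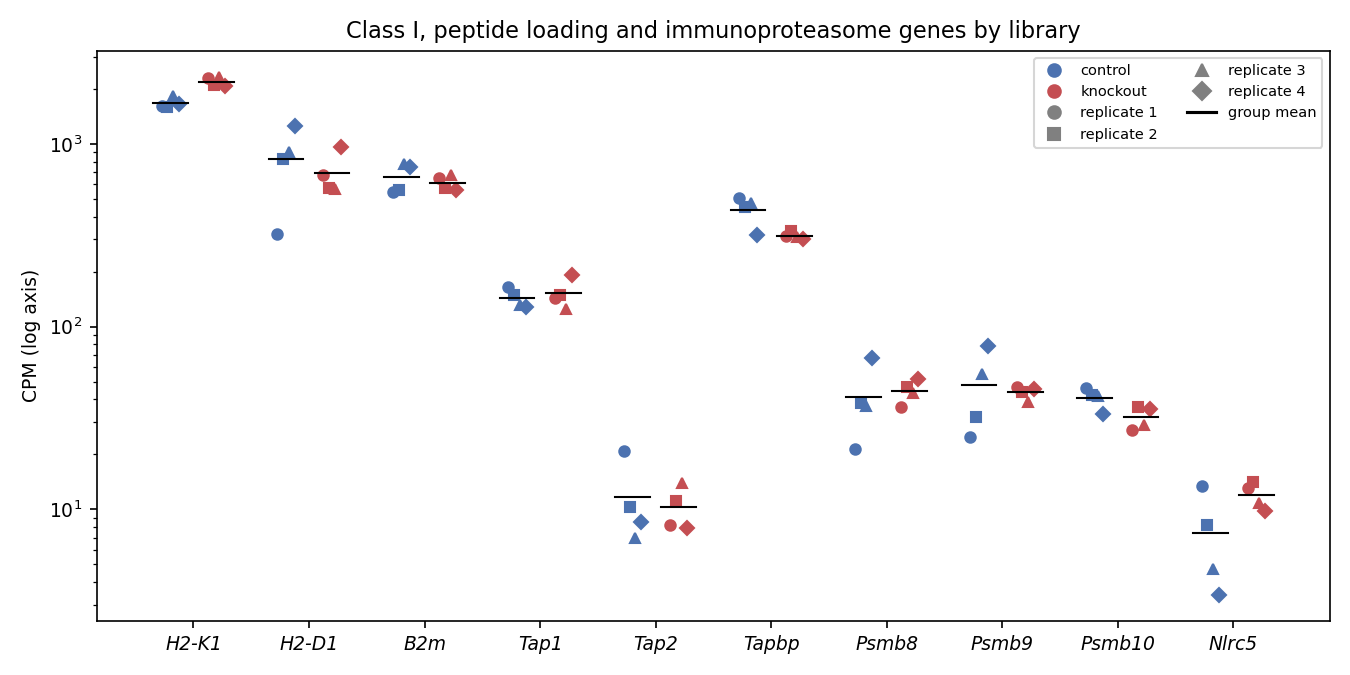
Levels in CPM (counts scaled to the library total, log axis) of the 10 genes in each library, with marker shapes for replicates and a line at each group mean. Only for H2-K1 do the 4 knockout libraries (2068 to 2336 CPM) all lie above the 4 control libraries (1592 to 1828 CPM).

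Across the 10 genes the levels in the control libraries spanned from H2-K1 at 1669.85 ± 108 CPM to Nlrc5 at 7.45 ± 4.49 CPM (SD, n = 4 each). CPM are counts scaled to a library's total, and since the library kit reads 1 tag at the 3′ end of each transcript, levels were not divided by length. How well tags of different genes are captured and counted was not tested, so the order is one of tags. Psma5 and Psmb5, both of the 20S proteasome core, had control means of 13.7 and 611 CPM. The order below H2-K1 was H2-D1 (827 ± 383 CPM), B2m (656 ± 122), Tapbp (437 ± 83.1), Tap1 (143 ± 17.3), Psmb9 (47.6 ± 24.4), Psmb8 (40.9 ± 19.0), Psmb10 (40.7 ± 5.28) and Tap2 (11.7 ± 6.30 CPM). H2-D1 overlapped B2m and Tapbp in range, the 3 immunoproteasome genes overlapped each other, and Tap2 overlapped Nlrc5. All the other neighbours in this order were separate in every control library. Counts per library ran from at least 9895 for H2-K1 down to 34 for Nlrc5 and 50 for Tap2, for which counting error alone reaches 17.1% and 14.1% of the value.

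H2-K1, the heavy chain of the Kb molecule in this strain, was the most abundant of the 10 and the one whose groups were separate. It stood at 1607, 1592, 1828 and 1653 CPM in control replicates 1 to 4 and at 2287, 2090.3, 2336 and 2068 CPM in knockout replicates 1 to 4. Every knockout library lay above every control library, and within each group the highest was at most 1.15 times the lowest. The fitted level was 1.31-fold higher in the knockout (95% interval 1.10 to 1.58), a log2 fold change of 0.39 ± 0.12 (SE) that did not pass in edgeR (adjusted p = 0.0785). It passed with DESeq2 (adjusted p = 0.0219) and limma-voom with sample weights (0.0271), and over all alternatives the adjusted p ran from 0.0219 to 0.240 with the same direction. The gene spans chr17:33996017-34000347 (GRCm38, GENCODE M21, minus strand) and has up to 8 exons.

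H2-D1, the Db heavy chain, was not called, and its groups overlapped. Its values were 322, 831, 903 and 1252 CPM in the control and 673, 573, 564 and 958 CPM in the knockout, replicates 1 to 4 in each. Control replicates 1 and 4 were the lowest and the highest of all 8 libraries, 3.88-fold apart, and the whole knockout range lay between them. The log2 fold change was -0.26 ± 0.31 (SE, 95% interval -0.94 to 0.42, edgeR adjusted p = 0.746), so changes between a fall to 0.522-fold and a rise to 1.34-fold lie within the interval. The spread within groups, a pooled SD of 0.65 on the log2 scale, was larger than that of 98.6% of the 141 genes of like level, H2-D1 included. That of H2-K1 (0.090) was the smallest among the 48 genes of its level, H2-K1 included. H2-D1 spans chr17:35262730-35267499 (plus strand) in GENCODE M21, whose first start lies upstream of the RefSeq start used above, so the 30-base stretches shown for it fall inside this span. Class I genes are near copies of each other, so reads could be split between them. In the last 500 bases of the longest transcripts, 0.443% of the 50-base words of H2-K1 (2 of 451) occurred in another gene, H2-D1. Of the words of H2-D1 9.53% (43 of 451) occurred in 80 other genes, led by AC132307.5, Adsl and Kcnk4, which are not class I genes. None of the words of the other 8 genes was shared. H2-L, a heavy chain of other strains, was at 0 counts in every library.

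B2m, the light chain shared by all class I molecules, had knockout values inside the control range. It was at 545, 557, 778 and 745 CPM in control replicates 1 to 4 and at 650.1, 571, 675 and 562 CPM in knockout replicates 1 to 4. Each knockout library fell between the lowest and the highest control library. The log2 fold change was -0.09 ± 0.15 (SE, 95% interval -0.42 to 0.23, edgeR adjusted p = 0.814). Its gene spans chr2:122147686-122153083 (plus strand). As a ratio within each library, which needs no scaling, B2m had 0.282, 0.230, 0.285 and 0.257 counts per count of both heavy chains in the control and 0.220, 0.215, 0.233 and 0.186 in the knockout. The ratio was lower in the knockout by 0.30 on the log2 scale. Control replicate 2 overlapped knockout replicate 3, and the exact two-sided permutation p was 0.0571 (0.229 adjusted over 4 ratios), where 0.0286 is the smallest this design allows.

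**Figure D2:**
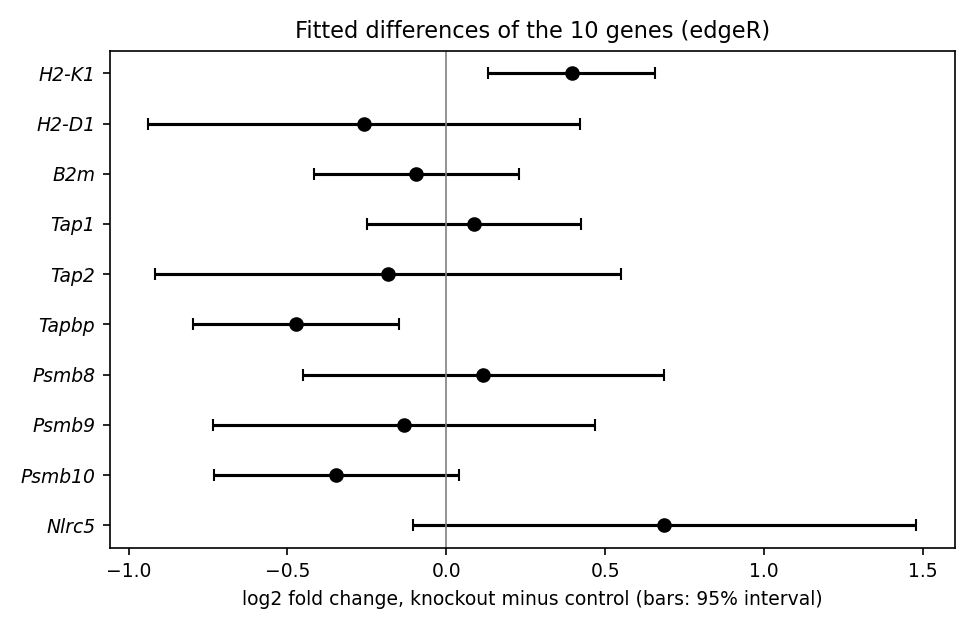
Fitted log2 fold change (knockout minus control) of each gene, with bars for the 95% interval of the quasi-likelihood fit. The intervals of H2-K1 (0.13 to 0.66) and Tapbp (-0.80 to -0.15) leave out 0 before adjustment over all genes, and those of the other 8 genes include it.

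Among the peptide loading genes, Tapbp was the one with the clearest difference, and the transporter genes differed by less than their spread. Tapbp, which encodes tapasin, the protein that holds TAP next to the empty heavy chain, stood at 506, 451, 474 and 317 CPM in control replicates 1 to 4. In knockout replicates 1 to 4 it stood at 313, 336, 311 and 300.4 CPM. Control replicate 4 lay inside the knockout range and the other 3 control libraries lay above it. The fitted level was 0.721-fold that of the control (95% interval 0.576 to 0.903), a log2 fold change of -0.47 ± 0.15 (SE, edgeR adjusted p = 0.0903). The adjusted p was 0.00501 without control replicate 4, 0.00518 without control replicates 1 and 4, 0.0440 with DESeq2 and 0.00785 with limma-voom, and it was between 0.0598 and 0.232 under the other alternatives. Tapbp spans chr17:33915899-33929292 (plus strand). It shares 149 exon bases with Zbtb22 on the same strand and 904 with the antisense gene Gm19412, and the sources used here do not give the strand setting of the counts.

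Tap1, one chain of the peptide transporter, was at 165, 149, 131 and 128 CPM in the control and 143, 149, 125 and 191 CPM in the knockout, replicates 1 to 4. Knockout replicate 4 was the highest and knockout replicate 3 the lowest of all libraries. The log2 fold change was 0.09 ± 0.16 (SE, 95% interval -0.25 to 0.42, edgeR adjusted p = 0.839). Tap2, the other chain, had far fewer tags, with 20.9, 10.3, 6.95 and 8.56 CPM in the control and 8.18, 11.1, 13.9 and 7.92 CPM in the knockout. Its highest library was control replicate 1, with a log2 fold change of -0.18 ± 0.34 (adjusted p = 0.847) that turned to 0.26 without that library. Tap1 spans chr17:34187553-34197225 and Tap2 chr17:34203527-34216321, both on the plus strand. Annotated exons of Tap1 share 212 bases with Psmb9 on the opposite strand, where both genes start and not where they end. Tap2 shares 533 with Gm15821 and 165 with Gm20496.

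The immunoproteasome genes had no call in either direction. Psmb8 and Psmb9 gave few tags beside their constitutive counterparts, but tag capture was not compared between these genes. Psmb8, the inducible chymotrypsin-like subunit, was at 21.5, 38.3, 37.0 and 67.0 CPM in control replicates 1 to 4 and at 36.2, 46.7, 43.5 and 51.7 CPM in knockout replicates 1 to 4. Psmb9, the inducible partner of Psmb6, was at 24.8, 31.9, 55.1 and 78.8 CPM in the control and 46.7, 43.6, 38.6 and 45.5 CPM in the knockout. For both genes control replicate 1 was the lowest and control replicate 4 the highest library of all 8, and the knockout lay between them. Psmb10, the inducible partner of Psmb7, showed the opposite order of these 2 libraries, with 45.9, 42.2, 41.6 and 33.4 CPM in the control. In the knockout it was at 27.2, 36.5, 28.9 and 35.4 CPM. In 2 knockout libraries it lay below all controls. The log2 fold changes were 0.12 ± 0.27, -0.13 ± 0.28 and -0.35 ± 0.18 (SE, edgeR adjusted p = 0.879, 0.868 and 0.340 for Psmb8, Psmb9 and Psmb10). That of Psmb8 was -0.10 without control replicate 1 and 0.46 without control replicate 4, and that of Psmb9 was 0.22 without control replicate 4. Psmb8 (chr17:34197721-34201454, plus strand) and Psmb9 (chr17:34181987-34187764, minus strand) lie beside the Tap genes, and Psmb10 spans chr8:105935735-105938444 (minus strand). Psmb8 shares 498 exon bases with the antisense gene Gm20496.

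None of the 3 constitutive subunits was called (adjusted p = 0.777, 0.822 and 0.879 in edgeR for Psmb5, Psmb6 and Psmb7). Psmb5 was at 611 ± 63.7 CPM in the control and 572 ± 45.6 in the knockout, Psmb6 at 432 ± 60.5 and 407 ± 29.6, and Psmb7 at 60.7 ± 16.5 and 57.4 ± 5.79 CPM (SD, n = 4 each), with log2 fold changes of -0.10, -0.08 and -0.08. Within a library, Psmb8 gave 0.0317, 0.0689, 0.0569 and 0.120 counts per count of Psmb5 in control replicates 1 to 4 and 0.0602, 0.0799, 0.0864 and 0.0871 in knockout replicates 1 to 4. Psmb9 gave 0.0503, 0.0796, 0.118 and 0.217 counts per count of Psmb6 in the control and 0.109, 0.101, 0.104 and 0.116 in the knockout. Psmb10 was nearer to its partner Psmb7, which itself had far fewer tags than Psmb5 and Psmb6. It gave 0.879, 0.974, 0.625 and 0.413 counts per count of Psmb7 in the control and 0.557, 0.591, 0.480 and 0.606 in the knockout. In each of these ratios the 4 knockout libraries were closer together than the control libraries, and the groups overlapped. The differences of 0.32, 0.09 and -0.30 on the log2 scale had exact two-sided permutation p of 0.514, 0.83 and 0.314 (0.686, 0.83 and 0.629 adjusted over 4 ratios). The sign of the first 2 turned without control replicate 1, to -0.0054 and -0.24, and that of Psmb9/Psmb6 also without control replicate 2, to -0.02.

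**Figure D3:**
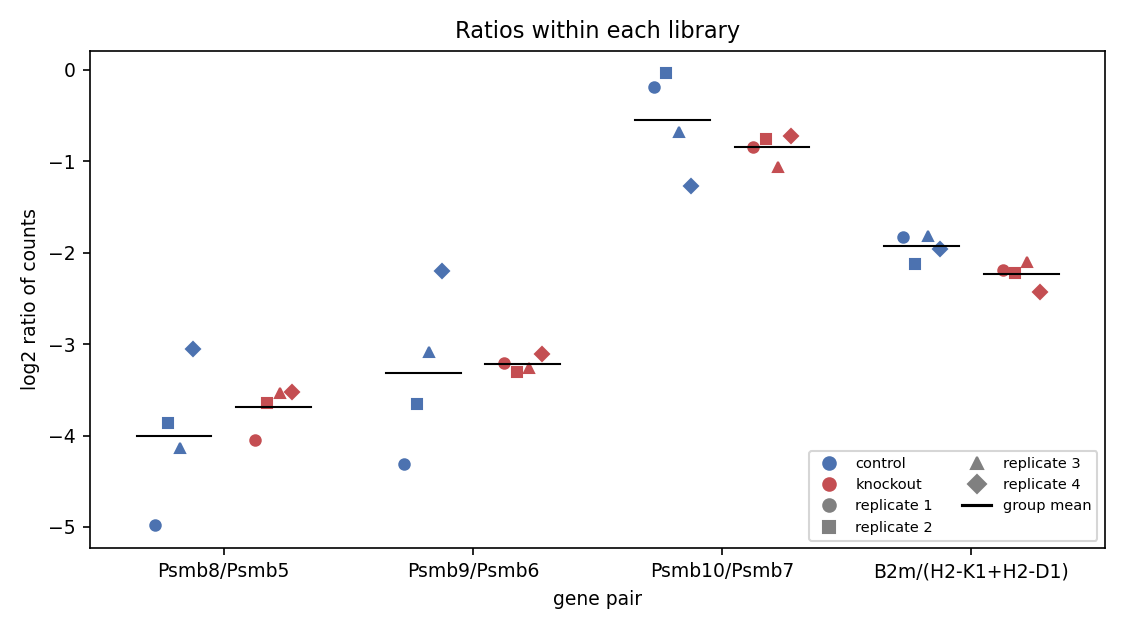
Log2 ratio of counts within each library for the 3 pairs of inducible and constitutive proteasome subunits and for B2m against both heavy chains, with marker shapes for replicates and a line at each group mean. Control replicates 1 and 4 lie at the ends of the control range for Psmb8/Psmb5 (-4.98 and -3.06) and Psmb9/Psmb6 (-4.31 and -2.20).

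Nlrc5, the transactivator of class I genes, had the lowest level and the largest fitted difference of the 10. It was at 13.5, 8.21, 4.73 and 3.40 CPM in control replicates 1 to 4 (96, 51, 34 and 35 counts) and at 13.0, 14.1, 10.9 and 9.72 CPM in knockout replicates 1 to 4 (97, 98, 83 and 81 counts). Control replicate 1 lay inside the knockout range and the other 3 control libraries lay below it. The fitted level was 1.61-fold that of the control (95% interval 0.929 to 2.79), a log2 fold change of 0.69 ± 0.37 (SE, edgeR adjusted p = 0.360). Without control replicate 1 it was 1.15 with an adjusted p of 0.0380, and over the other alternatives the value ran from 0.42 to 0.97 with an adjusted p of at least 0.0559. Nlrc5 spans chr8:94434356-94527272 (plus strand) and has up to 53 exons.

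Within the control group H2-D1, Psmb8 and Psmb9 were low in replicate 1 and high in replicate 4, and Nlrc5 and Tap2 were high in replicate 1 and below their mean in replicate 4. Relative to the control mean, replicate 1 was lower by 1.2 (log2) for H2-D1, 0.81 for Psmb8 and 0.79 for Psmb9, and higher by 1.02 for Nlrc5 and 0.95 for Tap2. Replicate 4 deviated the other way, by 0.75, 0.82, 0.87, -0.89 and -0.31 for the same genes. Both libraries stand apart from the rest over all genes, their deviations from the group mean having a root mean square of 0.594 and 0.581 against 0.324 to 0.432 (log2) in the other libraries. They also differed by transcript length, with genes split into 3 equal classes by the longest coding transcript, a split made after the data were seen. The median deviation of replicate 1 was -0.064 for the shortest class and 0.058 for the longest, and that of replicate 4 was 0.058 and -0.054. H2-D1, Psmb8 and Psmb9 belong to the shortest class, with at most 2102 bases in the longest transcript, and Nlrc5 to the longest, while H2-K1, B2m and Psmb10 are also in the shortest class and deviated by at most 0.28 in these libraries. The part of transcript length in the values above was not tested. The control SD on the log2 scale was larger than that of the knockout for 8 of the 10 genes and for 71.6% of all genes tested.

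**Figure D4:**
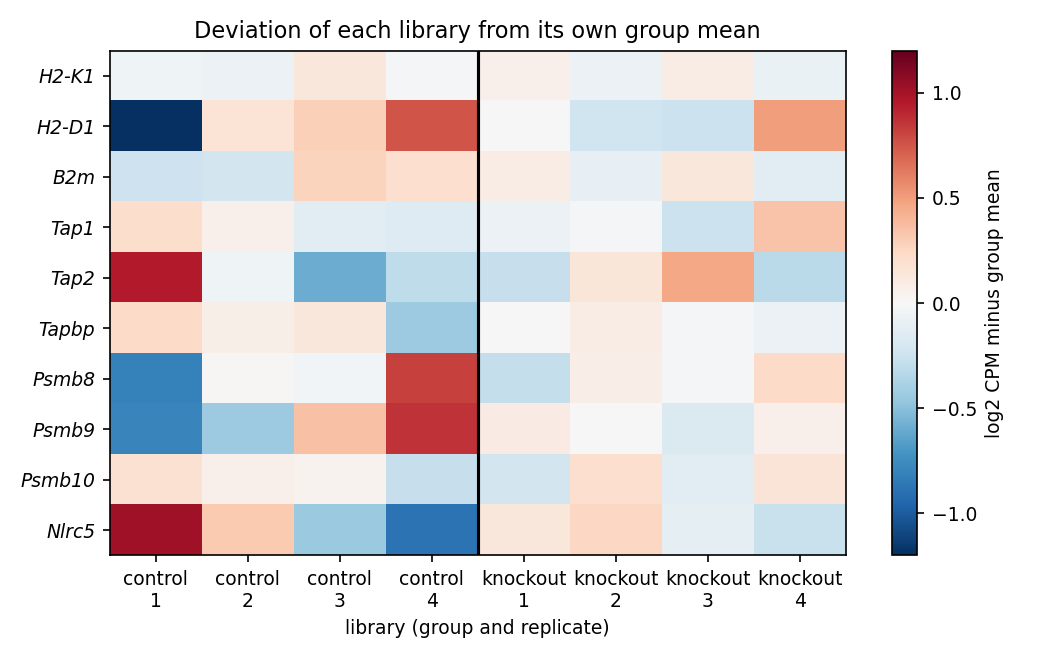
Log2 CPM of each gene in each library minus the mean of the library's own group (colour scale from -1.2 to 1.2). Control replicate 1 is low for H2-D1, Psmb8 and Psmb9 and high for Nlrc5 and Tap2, control replicate 4 shows the reverse, and the knockout libraries deviate by at most 0.50.

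The other genes of the pathway were read from lists of its further parts. Among 25 other class I and class I-like chains 8 passed the count filter and none was called in edgeR (2 at an unadjusted p under 0.05). DESeq2 called 1, H2-Q7, and limma-voom 2, H2-Q7 and H2-T24, and the median log2 fold change in edgeR was 0.09. H2-Q7, a nonclassical class I gene in the Qa-2 group, was at 15.3, 24.3, 33.2 and 33.4 CPM in the control and 50.0, 41.3, 43.6 and 40.3 CPM in the knockout, separate groups with a log2 fold change of 0.72 ± 0.23 (SE, adjusted p = 0.0845). The related genes H2-Q6 and H2-Q9 were at 0 counts in every library, and H2-Q8 had 1 count over all controls and 3 over all knockouts. Sharing of 3′ ends was not examined for these genes, so H2-Q7 counts may not stand for that gene alone. Of 12 other genes of peptide loading and trimming 1 was higher and none lower (median -0.06), against 2.54% and 3.19% of all genes. Tpp2, a large cytosolic peptidase that shortens proteasome products, rose from 57.5 ± 10.2 to 103 ± 10.9 CPM (SD, n = 4 each), its log2 fold change being 0.84 ± 0.17 (edgeR adjusted p = 0.00632) that kept its call in all 18 alternatives. The chaperone gene Calr had a log2 fold change of -0.32 ± 0.22 with 8463 CPM in control replicate 1, where the other controls had 3407 to 4478. Pdia3, which encodes ERp57, had -0.14 ± 0.14 (adjusted p = 0.497 and 0.653).

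Among the 8 genes of constitutive catalytic subunits, proteasome assembly and PA28 activators none was called (2 at an unadjusted p under 0.05, median -0.08), and among 11 other core subunits none was called (1 at an unadjusted p under 0.05, median 0.12). DESeq2 called 0 in both lists and limma-voom 1 in each, Psme4 and Psma5. Psme1 and Psme2, which encode the interferon-inducible PA28 activator, had log2 fold changes of -0.33 ± 0.15 and -0.13 ± 0.20 (edgeR adjusted p = 0.264 and 0.804). Psme4, which encodes the activator PA200, and the core subunit gene Psma5 had 0.41 ± 0.15 and 0.81 ± 0.30 (adjusted p = 0.162 and 0.157).

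Of the regulators upstream of class I genes 1 was called, a share near the 5.74% called over all genes. Among 15 genes of class I transcription Irf1 was lower and none was higher (median -0.16), against 3.19% and 2.54% of all genes. Irf1, an interferon-induced activator of class I genes, stood at 214 ± 43.6 CPM in the control and 139 ± 22.3 in the knockout (SD, n = 4 each), with -0.62 ± 0.17 as its log2 fold change, at the edge of the threshold (edgeR adjusted p = 0.049994). The call was lost under 10 of 18 alternatives, with an adjusted p of up to 0.207, and control replicate 1 (154 CPM) overlapped the knockout. Among 10 tested genes of interferon receptors and signalling none was called (4 at an unadjusted p under 0.05, and 0 with DESeq2 and 2 with limma-voom, median 0.01), with the smallest p for Tyk2 (0.50 ± 0.16, adjusted p = 0.0915).

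**Figure D5:**
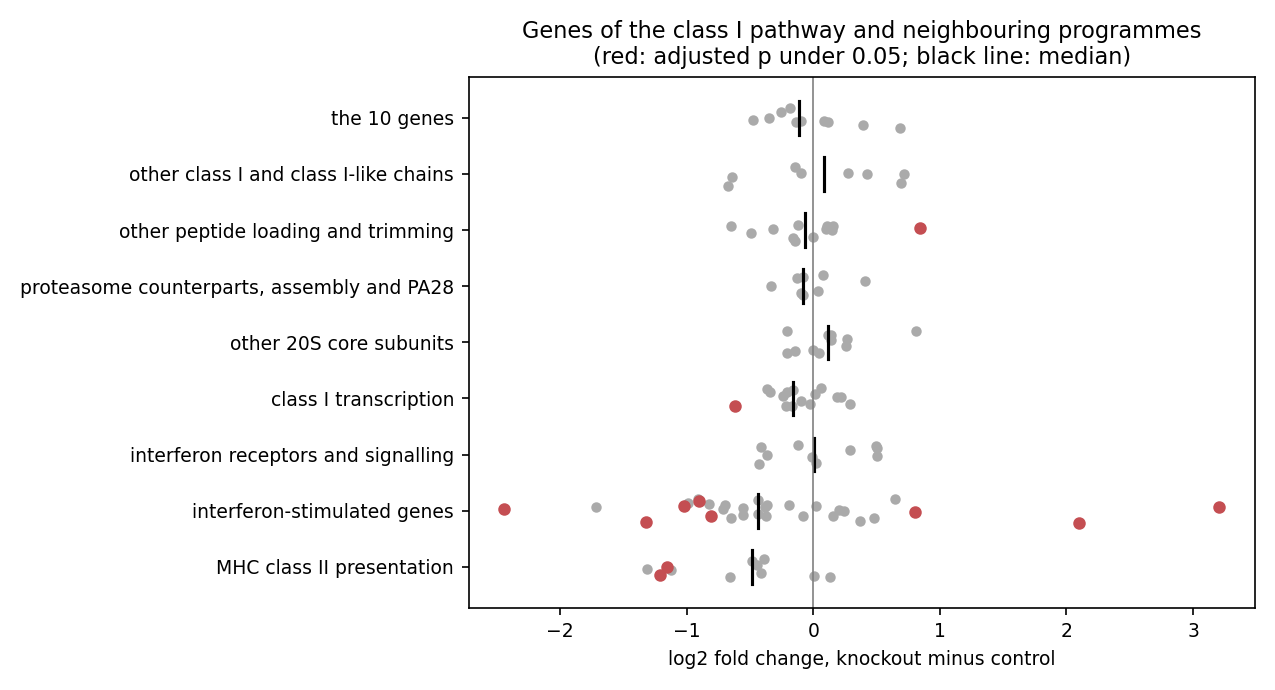
Log2 fold change (knockout minus control) of every tested gene in the 10-gene set and in 8 further lists, with called genes in red and the list median as a black line. Called genes are 8 of 31 interferon-stimulated genes, 2 of 11 class II genes, Tpp2 and Irf1, and none of the 10.

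Interferon-stimulated genes, a wider programme to which several class I genes belong, included 3 of 31 that rose and 5 that fell (median -0.43), against 2.54% and 3.19% of all genes tested. Those at an unadjusted p under 0.05 were 16 of 31, against 18% of all genes. Among the genes that rose, Isg20 lay at the edge of the threshold (edgeR adjusted p = 0.049994), and its groups overlapped. The 8 calls were 10 with DESeq2, 13 with limma-voom and 2 to 11 when 1 library was left out (5 without control replicate 3, and 5, 2 and 4 without knockout replicates 1, 2 and 3). Ifi27l2a fell from 234 ± 82.6 to 43.1 ± 10.96 CPM and the RNA sensor gene Ddx58 from 72.5 ± 6.99 to 41.3 ± 7.08 CPM, while the antiviral gene Rsad2 rose from 9.41 ± 2.47 to 40.2 ± 18.7 and the chemokine gene Cxcl10 from 0.729 ± 0.593 to 6.55 ± 1.81 CPM (SD, n = 4 each, edgeR adjusted p of 0.00899 or less for each). Without knockout replicate 2, Ddx58 and Cxcl10 lost their calls (adjusted p = 0.0545 and 0.0581). Of 11 tested class II presentation genes 2 were lower, H2-Ob (-1.21 ± 0.22) and H2-DMb1 (-1.15 ± 0.22, adjusted p = 0.00320 and 0.00451), with a median of -0.49 against -0.11 for the 10 class I genes. At an unadjusted p under 0.05 there were 8 of 11, DESeq2 and limma-voom each called 5 (also Ctss, H2-Aa and Ifi30), and edgeR called 4 without control replicate 1 and 2 or 3 without any other single library. The difference between these medians was not tested.

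Likeness of pattern was measured as the root mean square difference of log2 CPM over the 8 libraries, each gene set to its own mean, among 5415 genes whose log2 CPM averaged 4 or more. Nearest to the mean of the 10 genes, a nearly flat profile, were Cdc5l, Atf6 and Dcaf12 (0.045 to 0.055), and nearest to H2-K1 were Ebf1, Tax1bp1 and Emc3 (0.066 to 0.079), with log2 fold changes of 0.34 to 0.39, none of them called.

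The libraries held 5882912 to 10066661 counts, and a count of 0 allows up to 0.298 to 0.510 CPM (3 counts, counting error only). Jagn1 gave 16 to 99 counts in the control libraries and 1 or 2 in the knockout libraries, although the sources used here do not name the deleted exons, so a 3′ tag may lie outside them. Plasmablast markers were present in every library (for example Mzb1 at 15232 CPM or more). Of these 14 markers, 1 was called higher in the knockout (Fkbp11) and 5 lower (Sdc1, Jchain, Cd79a, Slamf7 and Tnfrsf17). Sdc1, which encodes the sort marker CD138, was at 0.476-fold the control level (edgeR adjusted p = 0.00635). Cd79a, the gene that drives Cre, was at 0.486-fold (edgeR adjusted p = 0.00313). Cre is listed only for the knockout genotype, and the part of the Cre allele in the Cd79a value was not tested. Summed levels of 10 resting or mature B cell markers were 402 to 554 CPM in the control and 411 to 539 CPM in the knockout. Among them, Ms4a1 was at 316 to 441 CPM and Cd22 at 2.53 to 10.8 CPM. Summed levels of 12 T cell markers were 34.6 to 47.5 CPM in the control and 25.0 to 34.2 CPM in the knockout, those of 12 macrophage markers 5.79 to 13.5 and 3.62 to 7.86 CPM, those of 8 NK cell markers at most 2.53 and those of 8 erythroid markers at most 0.875 CPM. The highest T cell marker in every library was Cd28 (12.1 to 24.5 CPM in the control, 9.33 to 15.8 CPM in the knockout), while Cd4 was at most 0.278 CPM. Ly6c2 was the only macrophage marker that passed the count filter. Lyz2, Cd14, S100a8, S100a9, Ncr1 and the globin genes were at 0. The neutrophil list (76.4 to 149 CPM) rested on Cxcr2 and the dendritic cell list (67.7 to 111 CPM) mostly on Xcr1, and no marker of another cell type was called.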

How the data were processed

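The authors deposited raw read counts per gene symbol, 1 file per library, not normalized. Per the labels' protocols, each QuantSeq 3′ mRNA-Seq (FWD) library was made from 500 ng RNA. Per the submitters' processing notes, the tools were HTSeq 0.6.1, TopHat2 2.1.1, BWA 0.7.12 and SAMtools 1.3.1, with mm10. The sources used here do not give the annotation, strand setting or handling of molecular identifiers, and PCR copies may be counted. No row lacked a gene name (0 rows), and no 2 libraries agreed within sampling noise (chi-square per degree of freedom 6.60 to 94.2).

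From these counts, genes were filtered with filterByExpr (minimum count 10, total 15), leaving 9904, scaled with TMM and tested with edgeR 4.0.16 (R 4.3.3), a robust quasi-likelihood F-test with group as the only term, two-sided, Benjamini-Hochberg adjusted over all genes. The SE was derived from F as the size of the log2 fold change over its square root. CPM were taken over library totals scaled by TMM, with 2 as the prior count on the log2 scale. Ratios used counts plus 0.5 and exact permutation over 70 arrangements. The genes and lists were chosen with earlier results of these data known. All 10 genes are named, and from each other list the called genes of smallest p (4 at most), or 1 where none was called, beside 10 genes always named, of which 1 is not reported here. Same-numbered replicates did not deviate together (correlations -0.0034 to 0.066) and were not paired. On simulated counts for this comparison (9741 genes, 200 changed), the test found 16.4% of the 1.5-fold changes, 59.7% of the 2-fold and 98.5% of the 4-fold changes, with 10 false calls among 126. The simulation drew changed genes above a minimum level and gave both groups the same spread. In the data the control SD was larger for 71.6% of genes tested, so these shares may not hold here. Alternatives were DESeq2 1.42.0, limma-voom (3.58.1), a replicate block, other scalings and filters, a non-robust edgeR fit and leaving out libraries. Positions and transcript lengths come from GENCODE M21 (a length for 93.2% of tested genes) and promoters from RefSeq.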

Additional observations from a re-analysis of the deposited data

Results flagged for a closer look

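In 2 of the 80 sets of 4 libraries examined, 1 library stood far from the other 3 by Dixon's criterion, which chance meets in about 1 set in 20. Jagn1 was at 0.268 CPM (2 counts) in knockout replicate 1, against 1 count in each other knockout library. Cdc5l, named as the gene nearest to the mean profile of the 10 genes, was at 55.1 CPM in 1 knockout library, against a knockout mean of 51.2 ± 2.64 CPM (SD, n = 4). None of the 10 class I genes and none of the 4 ratios met the criterion.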

How the results depend on the processing

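The count of called genes among the 10 was 0 in edgeR, 2 with DESeq2 and 2 with limma-voom (H2-K1 and Tapbp in both), 0 to 1 when 1 library was left out (Nlrc5 without control replicate 1, Tapbp without control replicate 4) and 1 with both of these libraries left out. The count over all genes was 568, and 858 with DESeq2, 1070 with limma-voom, 270 to 892 when 1 library was left out and 901 without control replicates 1 and 4. The 12 calls among the other pathway genes became 26 with limma-voom, 5 to 20 when 1 library was left out and 22 without control replicates 1 and 4. With the replicate block, which could not be read as pairing since 3 of 8 libraries correlated best with their own number, 509 genes and 0 of the 10 were called. The paired ratio differences changed no call, with 0.125 the smallest p 4 pairs allow. Ratios without 1 library ran from -0.0054 to 0.64 for Psmb8/Psmb5 and -0.24 to 0.46 for Psmb9/Psmb6. Uncalled genes changed sign. When 1 library was left out, values ran from -0.52 to 0.0026 for H2-D1, -0.043 to 0.17 for Tap1, -0.36 to 0.26 for Tap2, -0.096 to 0.46 for Psmb8, -0.35 to 0.22 for Psmb9, -0.22 to 0.077 for Psmb7, -0.48 to 0.028 for Calr, -0.034 to 0.024 for Cdc5l and -0.019 to 0.041 for Dcaf12. Without control replicates 1 and 4 they were 0.26 for Tap2, 0.0039 for Psmb9, 0.062 for Psmb7 and -0.053 for Dcaf12. With limma-voom they were 0.20 for Tap2, 0.032 for Psmb7, -0.010 for Cdc5l and -0.025 for Dcaf12, and with the replicate block 0.0016 for Psmb9. For Cdc5l and Dcaf12 they were -0.0038 and -0.00053 with RLE factors, -0.027 and -0.024 with library totals, and -0.0037 and -0.00040 with DESeq2. The cause was not tested. Other scalings moved the median of all genes by at most 0.032 (log2).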

Other observations

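Beyond H2-K1, H2-D1 and B2m, the spaced pair of TGACG and ATTGG was found in the promoter windows of 23 genes, of which 15 were tested. H2-M3, a nonclassical class I gene, was among them (log2 fold change -0.675, edgeR adjusted p = 0.457). The called ones, named after their values were seen, were Nfe2l1, a transcription factor gene known for activating proteasome subunit genes (0.942 ± 0.137 SE, adjusted p = 0.000566), Ghitm, a mitochondrial membrane protein gene (0.995 ± 0.246, 0.0276), and the histone chaperone gene Nasp (-0.511 ± 0.130, 0.0309). These 3 of 15 stand beside 5.74% of all genes, with no test. Mr1, the class I-like molecule that presents vitamin B metabolites, was below the count filter, with 87 counts over all controls and 19 over all knockouts, and without the filter had a log2 fold change of -2.11 ± 0.77 (SE, edgeR adjusted p = 0.133). It was named after its values were seen.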
